A study of Mus musculus with 4 samples.

Results

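The genes described here encode 5 intermediate filament proteins of neurons (Nefl, Nefm, Nefh, Ina and Prph) and 4 growth-associated proteins of the axon membrane (Gap43, Basp1, Marcks and Marcksl1). They were chosen by name, and all 9 were found, each on a single row per library, among 25239 gene IDs. Their RNA was measured in mouse retina at E13.5 (E, embryonic day), in 4 libraries, of which 2 are labelled control and 2 Isl1cKO. The series describes the latter as retina without Isl1, a LIM-homeodomain transcription factor that newborn ganglion cells express. The labels give the genotypes only as control and Isl1cKO, and the Cre driver, the alleles of the controls and the number of embryos per library are not given in the sources used here. The question put by the series is how the retinal transcriptome changes when Isl1 is lost.

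Neurofilaments are the main intermediate filaments of axons. The light chain, Nefl, assembles with the medium and heavy chains, Nefm and Nefh, and with alpha-internexin, Ina, or peripherin, Prph. Ina is expressed early in many central neurons, Prph is typical of peripheral neurons, and Nefh usually appears late, as axons mature. Gap43, Basp1, Marcks and Marcksl1 lie on the inner face of the plasma membrane, where Gap43 and the Marcks proteins bind calmodulin and are phosphorylated by protein kinase C, and all are linked to actin and to the growth cone. Ganglion cells are the first neurons of the retina to extend long axons, and Gap43 and neurofilaments are classical features of those axons. Marcks and Marcksl1 are also expressed in dividing neural progenitors.

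Values are TPM, transcripts per 1000000, a level scaled to transcript length and to a fixed sum per library, so levels of different genes can be compared. Levels of Isl1 itself, the gene targeted, were 242 and 201 TPM in control and 321 and 223 TPM in Isl1cKO (replicates 1 and 2 in this order, here and below). Its RNA was thus no lower under the label Isl1cKO, so every direction below rests on the labels. A level per gene does not show whether part of Isl1 is deleted. Between 12.6 and 14.3 gigabases of sequence were aligned, least in the second Isl1cKO library, which also stood apart in Xist, at 0.501 TPM against 209 to 287 TPM elsewhere. Across genes, 69 of 13984 tested passed the threshold, an adjusted p-value under 0.05 in limma, which is 0.493% of them, and 65 (0.465%) of these were lower under the label Isl1cKO. Nothing in the labels says that replicates came from separate litters, so p-values measure the spread between these libraries only.

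Promoters are shown for the 4 members with an entry in the RefSeq promoter table of GRCm38.p6 to show the sequence before 2 filament genes, Ina and Prph, and 2 growth-associated genes, Basp1 and Marcksl1. Each sequence holds the 250 bases before the start site, 5′ to 3′, and each start site matched the 5′ end of the gene in the deposited tables. Capitals mark TATAAA, the core of a TATA box, and GGGCGG, a GC box, each searched on both strands. Nefl, Nefm, Nefh, Gap43 and Marcks had no entry.

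Ina, chr19:47014431-47014680, plus strand: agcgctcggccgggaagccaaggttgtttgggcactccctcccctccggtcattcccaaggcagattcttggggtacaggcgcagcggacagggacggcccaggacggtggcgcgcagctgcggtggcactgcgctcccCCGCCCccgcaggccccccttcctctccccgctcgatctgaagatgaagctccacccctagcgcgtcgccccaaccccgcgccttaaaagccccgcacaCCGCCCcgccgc
Prph, chr15:99054924-99055173, plus strand: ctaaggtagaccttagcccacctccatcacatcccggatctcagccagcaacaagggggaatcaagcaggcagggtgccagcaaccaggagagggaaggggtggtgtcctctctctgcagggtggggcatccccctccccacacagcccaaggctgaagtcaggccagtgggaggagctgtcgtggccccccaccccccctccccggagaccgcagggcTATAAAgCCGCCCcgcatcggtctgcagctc
Basp1, chr15:25413765-25414014, minus strand: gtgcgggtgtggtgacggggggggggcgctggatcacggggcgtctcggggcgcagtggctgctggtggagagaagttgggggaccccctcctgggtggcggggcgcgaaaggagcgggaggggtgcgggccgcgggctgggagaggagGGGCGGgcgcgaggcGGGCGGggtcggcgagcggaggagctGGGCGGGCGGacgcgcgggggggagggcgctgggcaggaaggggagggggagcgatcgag
Marcksl1, chr4:129513331-129513580, plus strand: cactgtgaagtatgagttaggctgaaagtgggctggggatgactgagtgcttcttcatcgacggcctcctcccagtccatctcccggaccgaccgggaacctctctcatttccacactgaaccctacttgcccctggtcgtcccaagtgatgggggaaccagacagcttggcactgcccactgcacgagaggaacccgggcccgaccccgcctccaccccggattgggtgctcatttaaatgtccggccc

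The Prph window was the only one of the 4 with TATAAA, which began 31 bases before the start site. TATAAA was found in 12.4% of the 32851 promoter windows of this length. GGGCGG, found in 32.7% of windows, matched 4 times in Basp1, with 2 of the matches overlapping by 2 bases, 2 times in Ina, once in Prph and not in Marcksl1. The E-box CANNTG matched once in Ina and once in Marcksl1, and 66.2% of windows held it. The homeodomain core TAATTG, present in 7.17% of windows, was in none of the 4. All 4 windows lay above the median G and C content over all windows, 52.4%. The content was 70.8% in Ina, 65.2% in Prph, 78.8% in Basp1 and 60.4% in Marcksl1. Of all windows, 91.7%, 83%, 98.3% and 73% had a lower content than these, in the same order.

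In control retina the growth-associated genes and 3 of the filament genes were among the more abundant transcripts. Marcksl1 led with 1175 ± 66.6 TPM (SD, n = 2, as for all means here), followed by Gap43 with 815 ± 87.6 TPM and Nefm with 708 ± 99.1 TPM. The values of Gap43 and Nefm overlapped between these libraries, although Gap43 was the higher of the pair in each. Basp1 followed at 531 ± 25.9 TPM and Marcks at 484 ± 34.3 TPM, and their lowest and highest values, 513 and 508 TPM, nearly met. Nefl with 374 ± 54.4 TPM and Ina with 290.5 ± 39.7 TPM came next and did not overlap. Prph, at 1.92 ± 0.403 TPM, and Nefh, at 0.808 ± 0.193 TPM, were lower than the other members by more than 2 orders of magnitude.

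The order was another in the Isl1cKO libraries. Marcksl1 remained the highest in both, but Gap43, in the second place in both controls, was in the fifth place in both Isl1cKO libraries, below Marcks, Basp1 and Nefm. Ina, below Nefl in both controls, was above Nefl in both Isl1cKO libraries. Ranked against every gene of its library, Gap43 was in place 137 and 160 in control and in place 455 and 699 in Isl1cKO, whereas Marcksl1 held places between 100 and 113 in all 4 libraries.

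**Figure D1:**
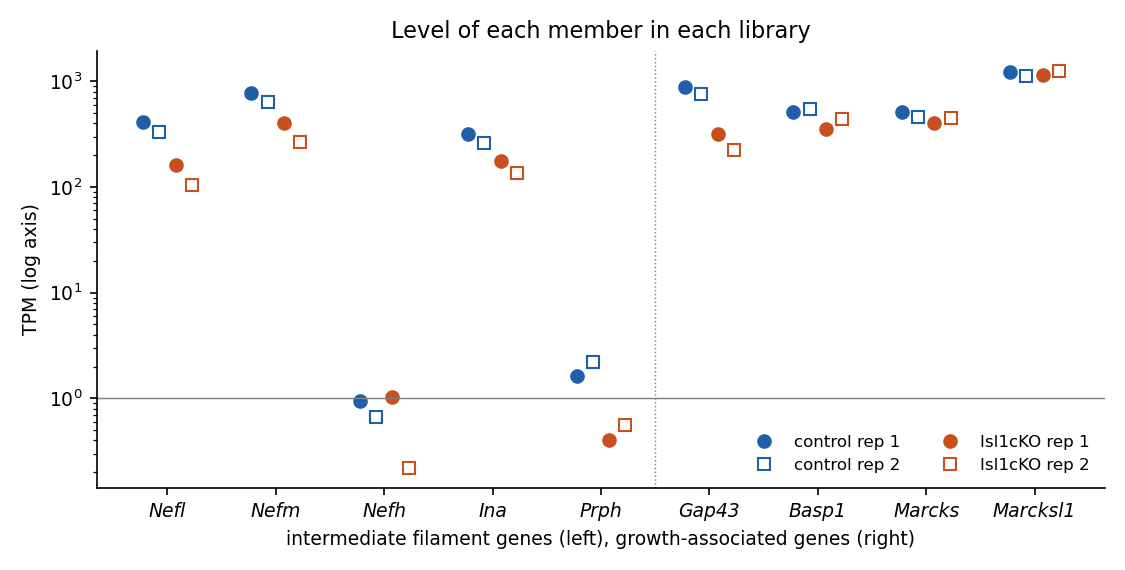
TPM on a log axis of the 5 intermediate filament genes (left of the dotted line) and the 4 growth-associated genes (right) in each library, with blue for control, orange for Isl1cKO, filled circles for replicate 1 and open squares for replicate 2. Nefl, Nefm, Ina, Prph, Gap43, Basp1 and Marcks lie lower in both Isl1cKO libraries than in both controls, Marcks by a small gap. Marcksl1 and Nefh do not, and Nefh and Prph lie near 1 TPM (grey line).

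Nefl, Nefm and Ina, the 3 filament genes present at high level, were each lower in both Isl1cKO libraries than in either control, with means that differed from the control mean by -64.4%, -52.6% and -46.3%. For Gap43 this difference was -66.6%, for Basp1 -25.2% and for Marcks -12.1%, while the mean of Marcksl1 was 3.20% higher. None of the 8 tested members passed the threshold in limma, at adjusted p-values from 0.0903 for Gap43 to 0.887 for Marcksl1, beside 0.465% of all tested genes called lower. Prph entered the test only through its control values, so its lower level was built in and it is left out of the next counts. Of the other 7, 5 were lower at an unadjusted p-value under 0.05 in limma (Nefl, Nefm, Ina, Gap43 and Basp1), as were 8.92% of all tested genes. In 6 of the 7 both Isl1cKO values lay below both control values, against 30.0% of tested genes. Without Isl1cKO replicate 2, the library set apart by Xist, no member passed in limma either, and the log2 fold changes of Nefl, Nefm, Ina and Gap43 were -1.20, -0.80, -0.72 and -1.34.

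Nefl (chromosome 14, 68083863 to 68089096, plus strand, 4 exons) encodes the light chain, on which the assembly of the other chains depends. Its level was 412 and 335 TPM in control, compared with 162 and 104 TPM in Isl1cKO. The groups did not overlap, and Isl1cKO replicate 2 was the lowest. The log2 fold change, which here always compares Isl1cKO with control on the log2(TPM + 1) scale, was -1.51 (SE 0.24, 95% interval -2.16 to -0.86, adjusted p-value 0.145 in limma).

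Nefm (chromosome 14, 68119545 to 68125004, minus strand, 4 exons) encodes the medium chain and was the most abundant filament transcript in every library. Its levels were 778 and 638 TPM in control, compared with 404 and 267 TPM in Isl1cKO. The groups again did not overlap, and the log2 fold change was -1.10 (SE 0.23, 95% interval -1.72 to -0.47, adjusted p-value 0.218 in limma). Nefl and Nefm lie tail to tail, 30448 bases apart in the deposited tables. In the annotation GENCODE M21 the locus of Nefm overlaps Nefl on the opposite strand. The libraries were strand-specific, but whether reads were assigned to genes by strand is not given in the sources used here.

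Ina (chromosome 19, 47014681 to 47025327, plus strand, 3 exons) encodes alpha-internexin, the chain that often precedes the neurofilament triplet in developing neurons. Control values of 319 and 262 TPM stood against 175 and 137 TPM in Isl1cKO, again without overlap. The log2 fold change was -0.90 (SE 0.17, 95% interval -1.35 to -0.45, adjusted p-value 0.180 in limma). Nt5c2, at 52.6 to 59.3 TPM, overlaps Ina on the opposite strand.

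Prph (chromosome 15, 99055174 to 99058978, plus strand, 8 exons) was low throughout, with 1.63 and 2.20 TPM in control against 0.402 and 0.561 TPM in Isl1cKO. It passed the filter of 1 TPM in 2 libraries only through the controls, so a difference was built into its entry to the test. The groups did not overlap, and the log2 fold change was -0.97 (SE 0.13, adjusted p-value 0.106 in limma). With a pseudocount of 0.1 in place of 1 the log2 fold change was -1.79 and the adjusted p-value in limma 0.135.

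Because Prph is typical of peripheral neurons, markers of sensory neurons and of their glia were read beside it. The sensory neuron marker Avil, which like Prph entered the test only through the controls, had 1.36 and 1.50 TPM in control against 0.891 and 0.853 TPM in Isl1cKO. Phox2a, Tlx3, Scn10a and Runx1 were at 0.439 TPM or less in every library, and the first 3 of these were at 0 in at least 1 library. The summed level of 5 peripheral glia markers was between 8.23 and 10.1 TPM in all libraries. The part of these cells in the Prph result was not tested.

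Nefh (chromosome 11, 4938756 to 4948064, minus strand, 4 exons), the heavy chain, reached 1 TPM in 1 library only and was not tested. Its values were 0.945 and 0.672 TPM in control, and 1.03 and 0.219 TPM in Isl1cKO. The 2 Isl1cKO libraries held both the highest and the lowest value, so the groups overlapped, and no difference was detectable at this level.

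Gap43 (chromosome 16, 42248561 to 42340651, minus strand, 3 exons) encodes the neuronal growth cone protein GAP-43 and had the lowest log2 fold change of the 8 tested members on the log2(TPM + 1) scale. Control levels were 877 and 753 TPM, compared with 321 and 224 TPM in Isl1cKO. Every Isl1cKO value was thus far below every control value. The log2 fold change was -1.60 (SE 0.20, 95% interval -2.14 to -1.06, adjusted p-value 0.0903 in limma), and 0.558% of tested genes had a log2 fold change as low or lower. Without Isl1cKO replicate 1 the log2 fold change was -1.86 and the adjusted p-value 0.0473 in limma, with the spread of the lone Isl1cKO library taken from the controls. With any other library left out it was 0.131 to 0.573 in limma.

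Basp1 (chromosome 15, 25363277 to 25413764, minus strand, 2 exons), also known as CAP-23, is a myristoylated protein of growth cones that resembles Gap43 in its membrane binding. Its levels were 513 and 550 TPM in control against 356 and 439 TPM in Isl1cKO. The groups did not overlap, and the log2 fold change was -0.42 (SE 0.13, 95% interval -0.77 to -0.08, adjusted p-value 0.339 in limma). Without Isl1cKO replicate 1 the log2 fold change was -0.28, and without Isl1cKO replicate 2 it was -0.57.

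Marcks (chromosome 10, 37133243 to 37138926, minus strand, 2 exons), a major substrate of protein kinase C, had 508 and 460 TPM in control against 403 and 448 TPM in Isl1cKO. The groups were separated by the small gap between control replicate 2 and Isl1cKO replicate 2. The log2 fold change was -0.19 (SE 0.10, 95% interval -0.46 to 0.09, adjusted p-value 0.573 in limma). Marcksl1 (chromosome 4, 129513581 to 129515981, plus strand, 2 exons), the smaller relative of Marcks, had 1222 and 1128 TPM in control against 1159 and 1265 TPM in Isl1cKO. These groups overlapped, and the log2 fold change was 0.05 (SE 0.09, 95% interval -0.21 to 0.30, adjusted p-value 0.887 in limma). Its sign turned to -0.01 without control replicate 2 and to -0.02 without Isl1cKO replicate 2. The pseudogene row Marcksl1-ps4 was at 0.762 TPM or less in every library.

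**Figure D2:**
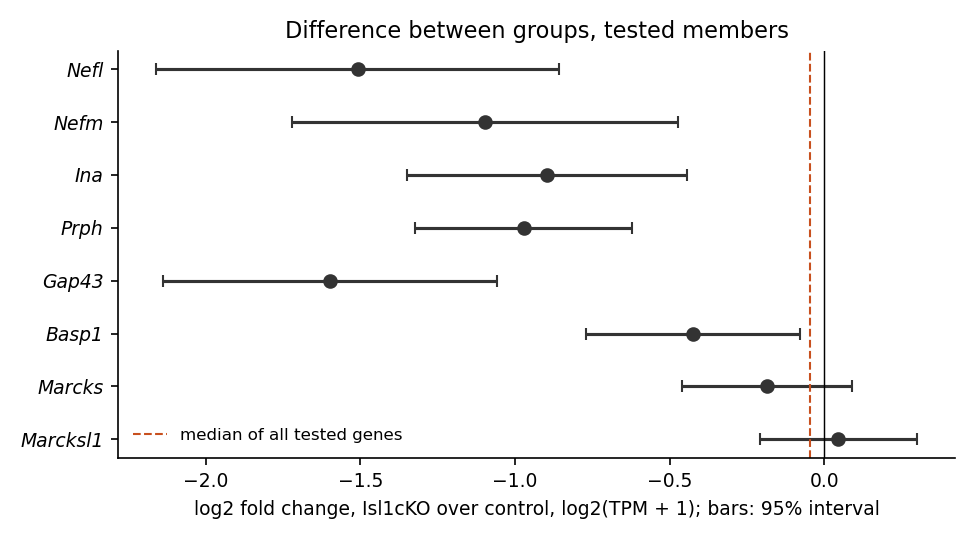
Log2 fold change of the 8 tested members, Isl1cKO over control on the log2(TPM + 1) scale, with 95% intervals from limma as bars. The intervals are not adjusted for the number of genes, and no member passed the threshold. Those of Nefl, Nefm, Ina, Gap43 and Basp1 lie below the median of all tested genes at -0.05 (dashed). So does that of Prph, which entered the test only through its control values. Those of Marcks and Marcksl1 include 0.

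Among tested members, the size of the difference followed the division by protein class only in part, with Gap43 as the exception. The median log2 fold change was -1.10 over Nefl, Nefm and Ina (-1.03 with Prph) and -0.305 over the 4 growth-associated genes, against -0.05 over all tested genes. Within the growth-associated group the values ran from -1.60 for Gap43 to 0.05 for Marcksl1, and Gap43 lay nearer to Nefl than to Basp1, Marcks or Marcksl1. The summed level of the 5 filament genes was 1511 and 1238 TPM in control against 742 and 509 TPM in Isl1cKO. That of the 4 growth-associated genes was 3120 and 2890 TPM in control against 2240 and 2376 TPM in Isl1cKO. Both sums were lower in each Isl1cKO library, with a ratio of the group means of 0.455 for the filament genes and 0.768 for the growth-associated genes. An exact two-sided permutation test over libraries gave p = 0.333 for each sum, the smallest value that 2 against 2 libraries can give.

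The Isl1cKO replicates also separated the members. Nefl, Nefm, Ina and Gap43 were higher in replicate 1 than in replicate 2, by factors of 1.28 to 1.55. Basp1, Marcks and Marcksl1 were higher in replicate 2 than in replicate 1, by factors of 1.09 to 1.23, as was Prph, by 1.40. Between the control libraries the factors were 1.16 to 1.23 for Nefl, Nefm, Ina and Gap43. The spread of these 4 genes was therefore wider between the Isl1cKO libraries than between the controls.

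**Figure D3:**
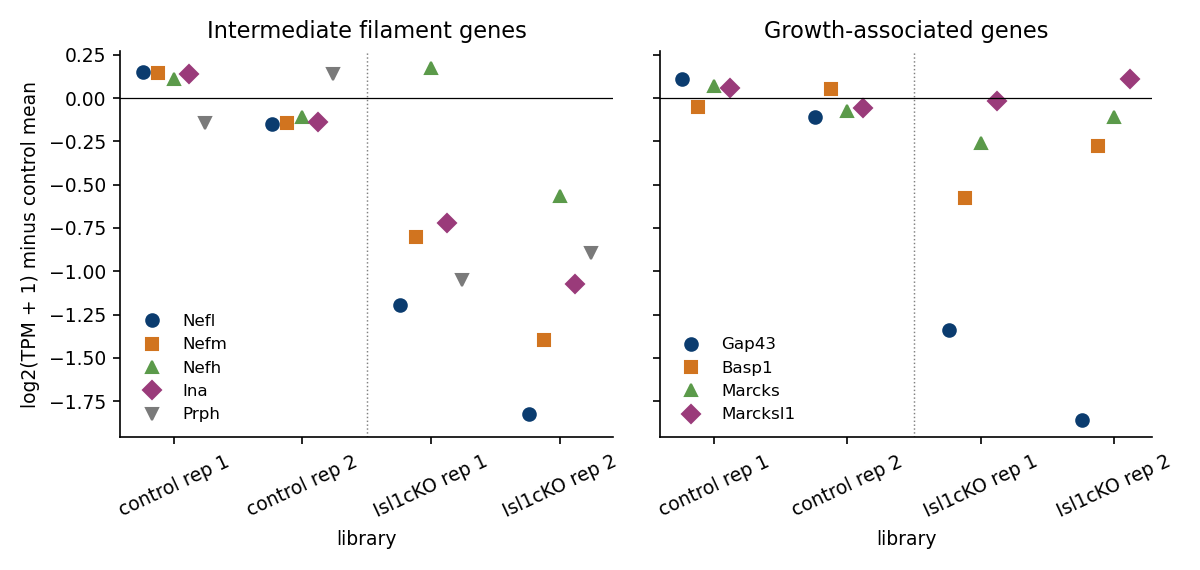
Each point gives a member's log2(TPM + 1) in 1 library minus its control mean, with filament genes on the left and growth-associated genes on the right. Nefl and Gap43 reach -1.82 and -1.86 in Isl1cKO replicate 2, whereas Marcksl1 stays between -0.06 and 0.11 in all 4 libraries.

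Ratios between members do not depend on how a library is scaled, and several differed between the groups by more than the spread between replicates. The ratio of Nefm to Nefl was 1.89 and 1.90 in control against 2.50 and 2.56 in Isl1cKO. The ratio of Ina to Nefl was 0.773 and 0.783 in control against 1.08 and 1.31 in Isl1cKO. Nefl thus made up a smaller share of the filament transcripts in the Isl1cKO libraries, 21.1 ± 0.903% against 27.2 ± 0.140% in control, while Ina made up 25.2 ± 2.29% against 21.1 ± 0.0785%. The share of Nefm was 51.5 ± 0.0183% in control and 53.5 ± 1.36% in Isl1cKO.

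The ratio of Gap43 to Nefl was similar in the 4 libraries, whereas its ratios to the other growth-associated genes were not. The ratio of Gap43 to Nefl was 2.13 and 2.25 in control against 1.98 and 2.14 in Isl1cKO, and these groups overlapped. The ratio of Gap43 to Marcksl1 was 0.718 and 0.668 in control against 0.277 and 0.177 in Isl1cKO, and that of Gap43 to Basp1 was 1.71 and 1.37 against 0.900 and 0.510. Gap43 made up 27.1 ± 1.45% of the growth-associated transcripts in control and 11.9 ± 3.47% in Isl1cKO, and Marcksl1 39.1 ± 0.103% and 52.5 ± 1.06%. The share of Basp1 was 17.7 ± 1.82% and 17.2 ± 1.80%, which differed by less than the spread between replicates. Of the 11 ratios between members that were computed, 10 did not overlap between the groups. Each of these 10 had an exact two-sided permutation p = 0.333, the smallest that this design allows. The ratios share genes with each other and were chosen after the values were seen. The share of ratios between other genes that do not overlap was not computed. After Benjamini-Hochberg adjustment over all 37 sums, ratios and shares compared, the smallest exact permutation p-value was 0.411.

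**Figure D4:**
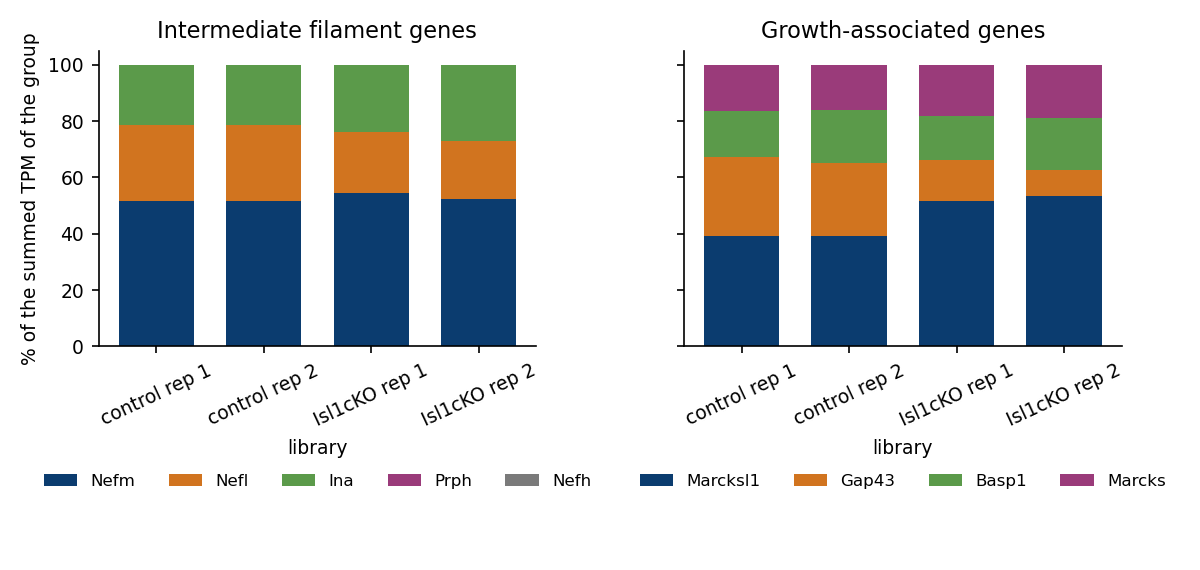
Stacked bars give each gene's share of the summed TPM of its group in each library, in percent, with filament genes on the left and growth-associated genes on the right. The share of Gap43 is 28.1% and 26.1% in control against 14.3% and 9.42% in Isl1cKO, and Prph and Nefh are too small to be seen.

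Ganglion cell markers were read beside these values. In bulk tissue, fewer cells of a type and less RNA per cell cannot be told apart. Of 10 markers 9 were tested, and none passed the threshold in limma. Pou4f3 entered the test only through its control values. Of the other 8 markers, 7 had both Isl1cKO values below both control values (30.0% of all tested genes) and 6 were lower at an unadjusted p-value under 0.05 (8.92% of all tested genes). The median log2 fold change of these 8 was -1.05, and the summed level of the 10 was 1001 and 858 TPM in control against 597 and 422 TPM in Isl1cKO. Thy1 was at 0.156 TPM or less throughout, and at 0 in Isl1cKO replicate 2. Ebf3, a transcription factor of early neurons, had 135 and 105 TPM in control against 47.0 and 29.7 TPM in Isl1cKO, and Pou4f1 had 19.6 and 19.7 TPM against 9.66 and 4.16 TPM. Pou4f3 had 4.86 and 2.02 TPM in control against 0.761 and 0 TPM in Isl1cKO.

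Pou4f2, the earliest of these ganglion cell factors, did not share that pattern, with 126 and 124 TPM in control against 135 and 120 TPM in Isl1cKO. The ratio of Nefl to Pou4f2 was 3.27 and 2.70 in control against 1.20 and 0.872 in Isl1cKO, and that of Gap43 to Pou4f2 was 6.96 and 6.07 against 2.37 and 1.87. Relative to Tubb3, a tubulin of all young neurons with 1332 and 1209 TPM in control against 972 and 808 TPM in Isl1cKO, Nefl was at 0.309 and 0.277 against 0.166 and 0.129. The ratio of Marcksl1 to Pou4f2 overlapped between the groups, at 9.70 and 9.09 against 8.57 and 10.6. That of Marcksl1 to Tubb3 did not, at 0.918 and 0.933 in control against 1.19 and 1.57 in Isl1cKO. The part of ganglion cell number in the filament and Gap43 values was not tested.

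For other cells of the retina, the median of each marker list lay closer to 0 than that of the ganglion cell markers (-1.05). No gene of these lists or of the lists in the next paragraph passed the threshold in limma. The median log2 fold change of 8 retinal progenitor markers was 0.04, with 4 above and 4 below 0. Their summed level was between 5700 and 7000 TPM. At an unadjusted p-value under 0.05 in limma, 2 of the 8 were lower (8.92% of all tested genes). Among the 8 the cell cycle gene Ccnd1 had a log2 fold change of -0.92, Fgf15 -0.35 and Sfrp2 0.34. The median was -0.49 over 5 tested amacrine markers, led by Tfap2a at -0.63, Tfap2b at -0.62 and Gad2 at -0.49. All 5 lay below 0, and in 4 both Isl1cKO values lay below both control values (30.0% of all tested genes). At an unadjusted p-value under 0.05 in limma, 2 of the 5 were lower (8.92% of all tested genes). The median was -0.48 over 6 photoreceptor precursor markers, with Rxrg at -1.66, Gngt2 at -0.89 and Prdm1 at -0.52. Rxrg thus lay below every tested member, the lowest of which was Gap43 at -1.60. All 6 lay below 0, and in 4 both Isl1cKO values lay below both control values (30.0% of all tested genes). Of the 6, 2 were lower at an unadjusted p-value under 0.05 in limma (8.92% of all tested genes). Over 4 horizontal cell markers the median was 0.17, and none had such a p-value. Among these Onecut2 was at 0.28 and Calb1, which entered the test only through Isl1cKO, at 0.26.

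Cells from outside the neural retina were also read. The median log2 fold change of 6 microglia markers was 0.34, with C1qb at 0.76, Cx3cr1 at 0.45 and C1qc at 0.40. Their summed level was 45.6 and 44.9 TPM in control against 57.1 and 67.5 TPM in Isl1cKO. At an unadjusted p-value under 0.05 in limma, 3 of the 6 were higher. The share of all tested genes higher at that p-value was not computed, so this count has no background to be read against. The median was -0.22 over 5 pigment epithelium markers, with Tyrp1 at -0.36 and Dct at -0.21, none with an unadjusted p-value under 0.05. Rpe65 was at 0 in all libraries. The periocular mesenchyme list had 2 tested genes, of which Col1a2 was at -0.44 with an unadjusted p-value under 0.05, and a summed level of 14.0 to 22.3 TPM. The part of any of these cells in the values of the filament and growth-associated genes was not tested.

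The remaining intermediate filament genes were examined next, to see whether the difference was general to the family. Of 13 listed, 11 were tested, and 9 of these lay below 0, where the median of all tested genes also lay (-0.05). Of the 11, 1 passed the threshold as lower, beside 0.465% of all tested genes. Of the 10 that reached 1 TPM in libraries of both groups, 4 had both Isl1cKO values below both control values (30.0% of all tested genes). At an unadjusted p-value under 0.05 in limma, 2 of the 10 were lower (8.92% of all tested genes). Synm, which encodes synemin, a large filament protein that copolymerizes with vimentin, desmin and neurofilament chains, fell from 6.77 and 5.69 TPM to 1.32 and 1.10 TPM (log2 fold change -1.71, SE 0.115, adjusted p-value 0.0216 in limma). Its adjusted p-value in limma was 0.0838 with no filter, 0.209 and 0.156 without control replicates 1 and 2, and 0.0988 without Isl1cKO replicate 2. Sync, a partner of desmin that entered the test only through its control values, had 1.28 and 1.64 TPM in control against 0.732 and 0.589 TPM in Isl1cKO, and Krt18, an epithelial keratin, had 12.8 and 10.02 TPM against 7.80 and 8.91 TPM.

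The filament genes typical of neural progenitors showed smaller differences. Vim had 1078 and 1226 TPM in control against 1097 and 1190 TPM in Isl1cKO, which overlapped, and its log2 fold change of -0.01 turned to between 0.0396 and 0.0480 under FPKM, median-ratio and upper-quartile scaling. Nes, or nestin, was at 163 and 145 TPM against 138 and 141 TPM, a log2 fold change of -0.14 (SE 0.09). The median over the 11 tested genes was -0.12, beside -0.05 over all tested genes.

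Genes for the phosphorylation, turnover and transport of neurofilaments had log2 fold changes below 0, none past the threshold. All 12 were tested, all 12 log2 fold changes lay below 0 and none passed in limma. The median over all tested genes also lay below 0, at -0.05, and the highest of the 12 was -0.05. The share of all tested genes below 0 was not computed. In 7 of the 12 both Isl1cKO values lay below both control values (30.0% of all tested genes), and 6 were lower at an unadjusted p-value under 0.05 (8.92% of all tested genes). Their median was -0.47. The activators of the tail kinase Cdk5 had the largest differences, with Cdk5r2 at 8.86 and 6.36 TPM in control against 3.61 and 3.38 TPM in Isl1cKO, and Cdk5r1 at 49.1 and 41.1 TPM against 32.0 and 24.1 TPM. Cdk5 itself overlapped, at 45.3 and 43.5 TPM against 46.9 and 38.0 TPM. Trim2, a ubiquitin ligase of the light chain, was at 70.0 and 63.2 TPM against 48.4 and 36.3 TPM, and Kif5a, a motor that carries neurofilaments, at 80.2 and 71.5 TPM against 59.0 and 42.1 TPM.

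Partners of the growth-associated proteins had smaller differences than Gap43. Of 17 genes 16 were tested, 14 of them lay below 0, where the median of all tested genes also lay (-0.05), and none passed in limma. Of the 15 that reached 1 TPM in libraries of both groups, 12 had both Isl1cKO values below both control values (30.0% of all tested genes), and 7 were lower at an unadjusted p-value under 0.05 (8.92% of all tested genes), with a median of -0.18. Elavl4, which encodes HuD, a protein that binds and stabilizes Gap43 mRNA, had 174 and 158 TPM in control against 86.9 and 65.9 TPM in Isl1cKO (log2 fold change -1.12, SE 0.16, adjusted p-value 0.112 in limma). Prkce, a protein kinase C, had 9.44 and 7.38 TPM against 3.28 and 3.92 TPM (log2 fold change -1.03), and Prkcz had 11.1 and 9.59 TPM against 7.82 and 7.65 TPM. The myristoyl transferases Nmt1 and Nmt2, which modify Basp1 and Marcks, had log2 fold changes of -0.18 and -0.14.

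Other proteins of growing axons formed a graded series. Of 18 genes, all tested, 17 lay below 0, where the median of all tested genes also lay (-0.05), and none passed in limma. In 16 of the 18 both Isl1cKO values lay below both control values (30.0% of all tested genes), and 13 were lower at an unadjusted p-value under 0.05 (8.92% of all tested genes), with a median of -0.53. Mapt, or tau, had 101 and 77.1 TPM in control against 41.3 and 27.8 TPM in Isl1cKO (log2 fold change -1.35, SE 0.24). L1cam, an axonal adhesion molecule, was at 54.8 and 46.6 TPM against 26.6 and 18.6 TPM (-1.15, SE 0.20), and Stmn3, a regulator of microtubules, at 216 and 199 TPM against 122 and 80.2 TPM (-1.06, SE 0.22). At the other end, the membrane protein gene Gpm6a was at 148 and 132 TPM against 162 and 125 TPM (0.02, SE 0.16).

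**Figure D5:**
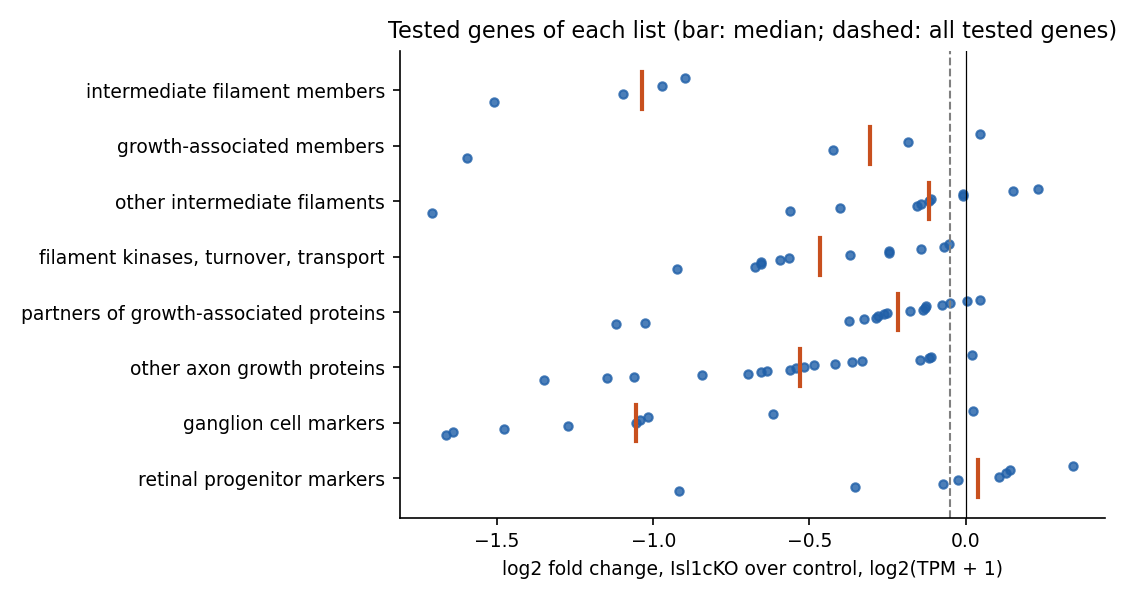
Points give the log2 fold change of each tested gene of 8 lists, Isl1cKO over control on the log2(TPM + 1) scale, red bars the median of each list and the dashed line the median of all tested genes. The medians of the filament members (-1.03, Prph included) and of ganglion cell markers (-1.055, Pou4f3 included) lie lowest, that of other axon growth proteins is -0.53, and retinal progenitor markers lie around 0.

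The genes with the pattern most like that of Gap43 and of Nefm over the 4 libraries were then listed, by the Euclidean distance between log2(TPM + 1) values centred per gene, among 9606 genes with a mean of at least 10 TPM. Closest to Gap43 were Cntn2 (distance 0.0735), an adhesion molecule of axons, Nefl (0.130), Ebf3 (0.141), Ccer2 (0.151) and the non-coding RNA gene Crnde (0.151). Cntn2 had 84.5 and 74.1 TPM in control against 29.4 and 21.7 TPM in Isl1cKO (adjusted p-value 0.0649 in limma). Closest to Nefm were L1cam (0.0948), Plppr1 (0.102), Sncg (0.113), which encodes gamma-synuclein, Stmn3 (0.126) and Calb2 (0.155), which encodes calretinin. Ina was in place 23 from Nefm, and Nefl in place 52. Basp1, Marcks and Marcksl1 were in places 603, 2002 and 7600 from Gap43. These distances rest on 4 libraries that all genes share and are given as a description.

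The replicate number as a block in the model gave other calls. With it, Nefl, Nefm, Ina and Prph of the filament genes and Gap43 of the growth-associated genes passed the threshold (Prph again having entered through the controls), at adjusted p-values of 0.0136, 0.0268, 0.0270, 0.0239 and 0.0109 in limma, beside 1.72% of all tested genes called lower. The labels do not say that equal numbers mark a shared litter or day, so the fit without the block is the one reported above. With a mean-variance trend in the model Gap43 (0.0202) and Nefl (0.0470) passed, and with FPKM in place of TPM Gap43 passed (0.0263 in limma).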

How the data were processed

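Poly(A)-selected RNA from dissected retina was sequenced in strand-specific libraries, per the labels' protocols. Trimmomatic, FastQC, HISAT2, SAMtools, StringTie and DESeq2 and the build mm10 are named in the submitters' processing notes, without versions. Per the file headers, each library's table gives coverage per base, FPKM and TPM by gene. The deposited TPM sums to 1000000 per library. The deposited FPKM served as an alternative, and the deposited coverage, with FPKM, gave the aligned gigabases. Depth in reads is unknown, so no counting interval is given.

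TPM was summed over repeated rows of a gene (171 to 234 genes per library, no member among them). Genes with at least 1 TPM in at least 2 libraries were fitted as log2(TPM + 1), which understates changes of low genes, with limma 3.58.1 in R 4.3.3 (lmFit and eBayes, constant prior, genotype as the only term), two-sided, with Benjamini-Hochberg adjustment over all tested genes and a threshold of 0.05. The script was tested on simulated data. Single quantities were compared by exact permutation of the libraries.

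The members and gene lists were chosen with earlier results of these data known. Named from each list were genes past the threshold and up to 3 non-overlapping genes with the largest change, and for Gap43 and Nefm the 5 most similar genes. Nmt1, Nmt2, Cdk5, Kif5a, Vim, Nes, Pou4f2, Tubb3, Gpm6a and markers at very low levels were added after their values were seen. Ratios between members were also chosen after the values were seen. Promoters came from RefSeq. A few genes of the lists are not reported here.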

Additional observations from a re-analysis of the deposited data

How the results depend on the processing

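Under 9 alternatives that kept all libraries, the tested members kept their direction (Prph under 7, since it does not enter at 5 TPM or with FPKM). The count of 69 genes was 44 at a pseudocount of 0.1, 15 with no filter beyond a value above 0, 127 with FPKM, 110 with a mean-variance trend, and 3 to 136 with 1 library left out (4 and 3 without control replicates 1 and 2, 136 and 17 without Isl1cKO replicates 1 and 2). The count of filament members past the threshold, 0, was 1 with the trend, and that of growth-associated members, 0, was 1 with FPKM and with the trend and 0 to 1 with 1 library left out. With the replicate block these counts were 265 genes, 4 filament and 1 growth-associated member. Replicate 1 deviations of the groups correlated at 0.126 across genes, and equal numbers were not taken as pairs, since there are 2 of them and the labels name no shared origin. The filament median of -1.03 was -1.31 at a pseudocount of 0.1, where Prph moves most. With 1 library left out it ran from -1.24 to -0.92, and the growth-associated median from -0.42 to -0.19.

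Vim, at -0.01, changed sign to 0.0419 with FPKM, 0.0480 with median-ratio and 0.0396 with upper-quartile scaling, and ran from -0.101 to 0.0842 with 1 library left out. In the same fits Marcksl1 ran from -0.0179 to 0.108 and Pou4f2 from -0.0629 to 0.113. A lone library is assumed there to vary like the other group. The cause of these changes was not tested.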
